A study of Mus musculus with 24 samples.

Results

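The later response to the hydrogen sulfide (H2S) donor NaHS was taken as 4 arrays of cells given NaHS for 24 h against 4 arrays of cells given vehicle for 24 h, 8 of the 24 arrays of the series. The arrays were chosen by their titles alone. All 8 held RNA of primary mouse alveolar type II cells grown for 3 days at an air-liquid interface until a monolayer had formed. The NaHS group then received 100 µM NaHS, a salt that gives off H2S quickly, and the vehicle group received the culture medium DMEM. The strain, age and sex of the mice and the number of animals are not given in the sources used here. Nor do the labels say whether replicates were separate cultures, and a p-value here reflects the scatter of these arrays, which may be technical. Matching groups of 4 arrays with NaHS and with vehicle at 6 h shared the fit. The comparison asks what NaHS leaves in the transcriptome a day after it was added.

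H2S is a gas that cells both make and destroy. Cystathionine beta-synthase (Cbs) and cystathionine gamma-lyase (Cth) release it from sulfur amino acids, and Mpst makes it from a product of cysteine breakdown. In mitochondria Sqor passes its electrons to the respiratory chain, and Ethe1, Tst and Suox carry the sulfur on to thiosulfate and sulfate. H2S also modifies cysteines of proteins and is known for effects on NRF2 antioxidant genes, ion channels and mitochondrial respiration. Alveolar type II cells make surfactant, transport sodium and fluid, and turn into type I cells in culture.

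At 24 h no gene passed. With limma, 0 of 33239 genes had an adjusted p under 0.05 (0% of those tested), and the smallest adjusted p was 0.308, for C1qa. Each probe without a gene name counted as a gene, here and in all shares over all genes. At an unadjusted p under 0.05 stood 2908 genes (8.75%), 1026 with higher signal in NaHS (3.09%) and 1882 with lower signal (5.66%). With no slide in the fit 491 were higher and 247 lower, whereas lower genes outnumbered higher ones in every other alternative fit of this comparison. With the arrays of slide 2 fitted alone 1541 were higher and 1840 lower. The slide 2 effect within the larger fit, a different contrast, had 2001 higher and 1693 lower. A change of 2-fold or more in either direction fell outside the 95% interval for 23862 genes (71.8%). The signs were balanced, with 49.7% of all differences above 0, 50.3% below and a median of -0.0016. All 4 NaHS arrays lay above all 4 vehicle arrays for 310 genes (0.933%) and below them for 247 (0.743%). Below, levels are log2 signals minus the 75th percentile of the array, differences are NaHS minus vehicle on that log2 scale with their standard error (SE), and adjusted p-values are those of limma over all genes.

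Replicates 1 and 3 of every group lay on slide 1 and replicates 2 and 4 on slide 2. At 24 h, 56.8% to 57.2% of probes were well above background on slide 1 and 67.7% to 73.8% on slide 2. The first principal component, 64.3% of the variance, parted the slides, which were therefore a block in the fit. Within each slide, vehicle arrays sat in columns 1 and 2 and NaHS arrays in columns 3 and 4, so treatment and column cannot be told apart. On slide 2 the NaHS arrays had 71.2% and 73.8% of probes above background, against 67.7% and 69.2% for vehicle. Replicate 2 of vehicle at 24 h had the lowest estimated array weight of the 8, 0.403. Without it 1795 genes in place of 2908 were at an unadjusted p under 0.05, and 0 passed.

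The smallest p belonged to C1qa, which encodes a chain of the complement protein C1q, a product of macrophages. The levels of C1qa in replicates 1 to 4 were -6.50, -6.21, -6.45 and -7.54 with vehicle and -4.74, -5.37, -4.41 and -5.15 with NaHS. The groups did not overlap, and the probe was well above background on 0 of 4 vehicle arrays and 4 of 4 NaHS arrays. In the main values C1qa was at least 1.71-fold higher with NaHS (adjusted p = 0.308), a bound taken against the dimmest signal that counted as above background on each vehicle array. The bound compares means and leaves out the scatter among arrays. The probe passed the filter on dim probes through the NaHS arrays at 24 h alone, so it had to differ. With the background corrected by normexp, an alternative that damps dim signals, the C1qa difference was 0.21, short of that bound. Of the 19 macrophage genes tested, 2 had positive differences, C1qa among them. Its partner chain C1qb, named here after its values were seen, stood at -2.76, -0.83, -2.64 and -1.11 with vehicle and at -2.81, -1.58, -2.35 and -1.18 with NaHS, with overlapping groups.

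Kit, the receptor for stem cell factor, was likewise dim. Its levels were -6.45, -5.65, -5.21 and -6.35 with vehicle and -5.06, -4.41, -4.60 and -4.71 with NaHS. No NaHS array lay among the vehicle arrays, of which 2 of 4 were above background. The difference was 1.22 ± 0.25 (SE; adjusted p = 0.476) and 0.16 with normexp. Tchh, which encodes the hair follicle protein trichohyalin, had the smallest p among negative differences. It stood at -0.68, -0.66, -0.44 and -1.01 with vehicle and at -1.33, -1.56, -1.43 and -1.31 with NaHS, above background on all 8 arrays and without overlap. Its difference was -0.71 ± 0.13 (SE; adjusted p = 0.414).

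The probes behind these 3 genes and Cbs are shown because each gene was read from a single probe. The first 30 of the 60 bases of each are given as deposited, in lower case, and none of these stretches occurred in another probe of the array. On mm9, the build of the array annotation, the C1qa probe lies at chr4:136452409-136452468, that of Kit at chr5:76052394-76052453, that of Cbs at chr17:31749593-31749652 and that of Tchh at chr3:93252853-93252912. Exons were not assigned, since no annotation of that build was used here.
C1qa: ccggccagctttctcagccattcggcagaa
Kit: gtcaggtacttaaggggccacaccattgag
Cbs: gcacccactttctgtctcaatggatctccc
Tchh: gggaaatgtatgaacagaggacaaatttct

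Among the other genes with small p, several were bright enough to be measured on every array. Ank, a membrane protein that exports pyrophosphate, stood at 1.71, 1.15, 1.99 and 1.31 with vehicle and at 2.54, 1.89, 2.49 and 1.65 with NaHS. Both NaHS arrays of each slide lay above both vehicle arrays of that slide, and the difference was 0.60 ± 0.12 (SE; adjusted p = 0.476). Sema7a, a membrane-anchored semaphorin, stood at 3.05, 2.10, 3.22 and 2.67 with vehicle and at 3.72, 3.23, 3.67 and 2.94 with NaHS, again higher within each slide. Aldh1a3, an enzyme of retinoic acid synthesis, differed by 0.85 ± 0.24 (SE; adjusted p = 0.531), 0.47 on slide 1 and 1.24 on slide 2. Prrx2, a mesenchymal homeobox gene (0.35 ± 0.09), and Nipal1, of a family of magnesium transporters (0.39 ± 0.10), had small differences of like size on both slides.

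Dimmer genes with positive differences were Arl14, Nefm, Gabrb2 and Sec14l5. Arl14, a small GTPase gene, was above background on 0 of 4 vehicle arrays, at -6.14, -7.48, -5.83 and -5.73, and on 4 of 4 NaHS arrays, at -3.04, -2.54, -4.38 and -4.93. By the bound used for C1qa it was at least 3.69-fold higher in the main values (adjusted p = 0.531). Its difference with normexp, 0.49, fell short of that bound. Nefm, a neurofilament gene, was above background on 0 of 4 vehicle and 4 of 4 NaHS arrays. Its bound in the main values was 1.83-fold. Both with normexp and in the deposited value table the Nefm difference was 0.16, short of that bound. Without the NaHS arrays at 24 h neither gene would have passed the filter on dim probes, so a difference was built in. Gabrb2, a GABA receptor subunit, differed by 0.71 ± 0.19, and Sec14l5, of a lipid-binding family, by 0.82 ± 0.23. With normexp these were 0.19 and 0.30.

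Genes with negative differences included 2 of energy metabolism. Cox4i2, an alternative subunit of cytochrome c oxidase, stood at -1.24, 0.05, -1.22 and -0.09 with vehicle and at -1.61, -0.45, -1.82 and -0.44 with NaHS. The slides differed by more than the treatment, yet on each slide both NaHS arrays were below both vehicle arrays, and the difference was -0.46 ± 0.09 (SE; adjusted p = 0.454). Aldoc, a glycolytic aldolase, stood at 1.45, 2.04, 1.16 and 1.68 with vehicle and at 0.78, 1.19, 0.78 and 0.99 with NaHS, lower on each slide, and the groups overlapped by 1 NaHS array of slide 2 and 1 vehicle array of slide 1. Its difference was -0.65 ± 0.16 (SE; adjusted p = 0.531). Cyria, a Rac1-binding regulator of actin, differed by -0.46 ± 0.11, with the groups apart.

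The remaining negative genes were dimmer on slide 1 than on slide 2, as were all genes tested on average. With vehicle at 24 h that average was -1.60 in replicate 1 and -1.05 in replicate 2. Rhcg, an ammonium transporter, stood at -4.72, -2.42, -4.57 and -2.54 with vehicle and at -5.79, -3.32, -6.21 and -2.83 with NaHS, where 2 of 4 arrays were above background. Dio3os, a noncoding RNA gene at the Dio3 locus, differed by -1.62 ± 0.35, also with 2 of 4 NaHS arrays above background. Ccrl2 (-0.72 ± 0.17), Ttll8 (-0.78 ± 0.19), Smr2 (-0.66 ± 0.16), Doxl1 (-0.53 ± 0.13), Flrt1 (-0.51 ± 0.13) and Gpha2 (-0.48 ± 0.11) followed, none past the threshold. With normexp, Dio3os was at -0.35, Rhcg at -0.25, Ttll8 at -0.19, Smr2 at -0.20, Ccrl2 at -0.34, Doxl1 at -0.26 and Flrt1 at -0.31. With the mean of their probes, Dio3os was at -0.91 and Flrt1 at -0.18.

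**Figure D1:**
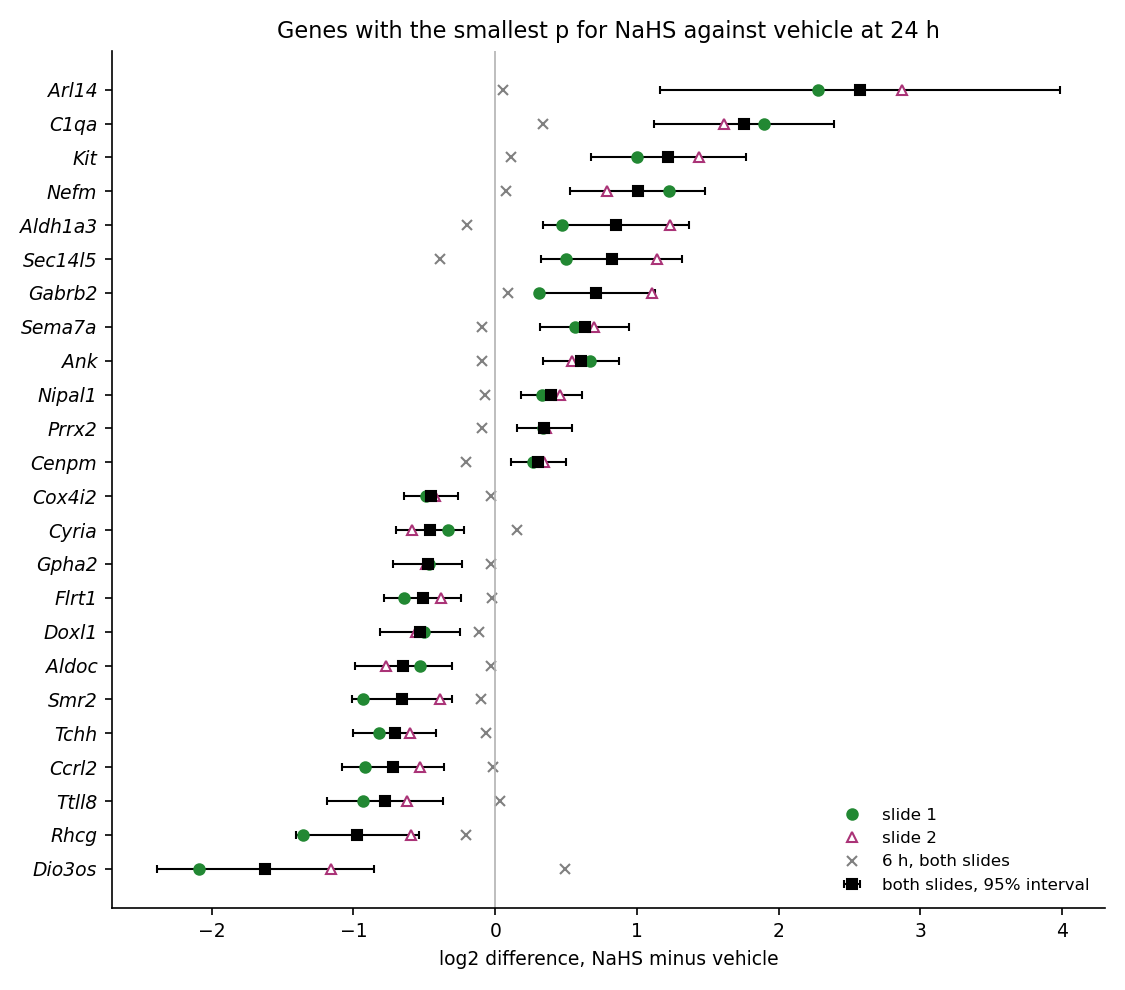
Log2 differences (NaHS minus vehicle, x axis) of the 12 positive and 12 negative named genes with the smallest p at 24 h; squares with bars give the estimate over both slides with its 95% interval, circles and triangles slide 1 and slide 2, and crosses the difference at 6 h. The genes were chosen by p, and both slides lie on the same side of 0 for each, Ank at 0.67 and 0.54, with -0.09 at 6 h; C1qa, Nefm and Arl14 are drawn at their measured signal, though no vehicle array at 24 h was above background and the text gives bounds.

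Of the genes that make or oxidise H2S, none passed and Cbs was the one with the smallest p. Cbs stood at 1.02, -0.74, 1.06 and 0.37 with vehicle and at 1.48, 1.21, 1.01 and 1.35 with NaHS. The NaHS arrays were close together, while the vehicle arrays of slide 2 were low, and replicate 3 of NaHS lay just below both vehicle arrays of slide 1. The difference was 0.83 ± 0.32 (SE; 95% interval 0.14 to 1.51; adjusted p = 0.542), 0.20 on slide 1 and 1.46 on slide 2. Without replicate 2 of vehicle it was 0.51.

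The other source enzymes differed little or were uncertain. Cth stood at 3.25, 3.89, 3.04 and 3.101 with vehicle and at 3.47, 4.14, 2.90 and 2.66 with NaHS, a difference of -0.03 ± 0.60 (SE) whose 95% interval, -1.32 to 1.26, holds a 2-fold change either way. Mpst was tight, at 2.16, 2.17, 2.13 and 2.10 with vehicle and 2.09, 1.97, 2.13 and 1.85 with NaHS, and its interval ran from -0.34 to 0.08.

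In the oxidation pathway the groups overlapped for every enzyme named. Sqor, the first step, stood at 3.61, 2.96, 3.54 and 3.40 with vehicle and at 3.59, 3.46, 3.71 and 3.77 with NaHS, with the interval from -0.10 to 0.62. Ethe1, the sulfur dioxygenase, differed by -0.06 ± 0.08 (SE), with the interval from -0.23 to 0.11. Tst, a rhodanese (-0.05 ± 0.17), Suox, the sulfite oxidase (-0.16 ± 0.10), and Selenbp1, a methanethiol oxidase (0.10 ± 0.34), were also near 0. Over the list, 16 of 17 genes were tested, 6 with positive and 10 with negative differences, and the median was -0.04. Csad, which turns cysteine sulfinate toward taurine, was the other member at an unadjusted p under 0.05, with -0.24 ± 0.11 (SE; adjusted p = 0.554). Of the 16, 13 had an interval within a 2-fold change (81.2%, against 71.8% of all genes).

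**Figure D2:**
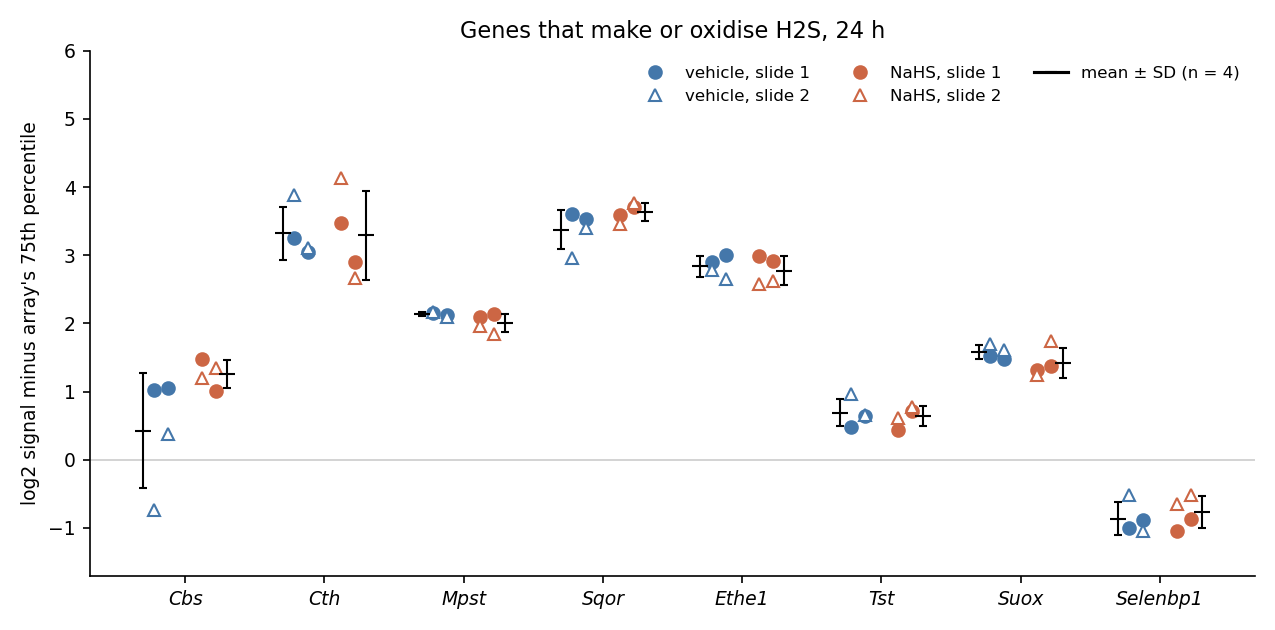
Levels (log2 signal minus the 75th percentile of the array, y axis) of 8 genes that make or oxidise H2S on the 8 arrays at 24 h, vehicle in blue and NaHS in orange, slide 1 as filled circles and slide 2 as open triangles, with the mean ± SD of 4 arrays. Vehicle and NaHS points overlap for all 8 genes, and Cbs has its lowest point, -0.74, in replicate 2 of vehicle.

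The lists of sulfur, redox and stress genes had medians near 0. Sulfur amino acid and glutathione synthesis had 8 of 18 positive differences and a median of -0.02. Its members with the smallest p were Bhmt, a methionine-forming methyltransferase (-0.36 ± 0.22), and Gclc, the catalytic subunit that begins glutathione synthesis (0.24 ± 0.15), neither at an unadjusted p under 0.05. The NRF2 targets had 16 of 27 positive differences and a median of 0.04, 0.15 on slide 1 and -0.06 on slide 2.

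Nqo1, the quinone reductase often read as an NRF2 marker, stood at -0.98, -0.57, -0.79 and -0.75 with vehicle and at -0.19, -0.49, 0.47 and -0.45 with NaHS. The groups did not overlap, as for 2 of the 27 NRF2 targets (7.41%, against 0.933% higher over all genes). The NaHS arrays of slide 1 carried most of the Nqo1 difference, 1.03 against 0.19 on slide 2. Over both slides Nqo1 differed by 0.61 ± 0.35 (SE; adjusted p = 0.633). Hmox1, haem oxygenase, had its lowest value, 1.89, in replicate 1 of NaHS, against 3.57 to 4.77 on the vehicle arrays and 3.93 to 4.47 on the other NaHS arrays. Its difference was -0.51 ± 0.51 (SE). Aldh3a1, a further target, differed by -0.28 ± 0.14.

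The ATF4 stress genes had 11 of 30 positive differences (median -0.03), led by Atf3, an early stress factor (0.33 ± 0.15), and Sesn2 (-0.16 ± 0.11). Heat shock genes were at a median of -0.0002 with 7 of 15 positive, among them Hspa4l at 0.20 ± 0.09. The unfolded protein response of the endoplasmic reticulum had 12 of 20 positive and a median of 0.04, and the intervals of all 20 genes lay within a 2-fold change. Its members Creld2 (0.17 ± 0.12) and Pdia4 (0.11 ± 0.08) had the smallest p. The HIF targets had 9 of 24 positive (median -0.03), with opposite medians on slide 1 (-0.14) and slide 2 (0.13), and Eno1, a glycolytic enzyme, at -0.19 ± 0.10 after Aldoc.

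For mitochondrial respiration the measurement was tight, with all 28 intervals within a 2-fold change and a median of -0.02. The cytochrome c oxidase subunits Cox5b (-0.18 ± 0.09) and Cox5a (-0.13 ± 0.07) had the smallest p, and 8 of 28 differences were positive. The metal response genes had a median of -0.01 with 5 of 12 positive, the metallothionein Mt1 at -0.25 ± 0.14.

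**Figure D3:**
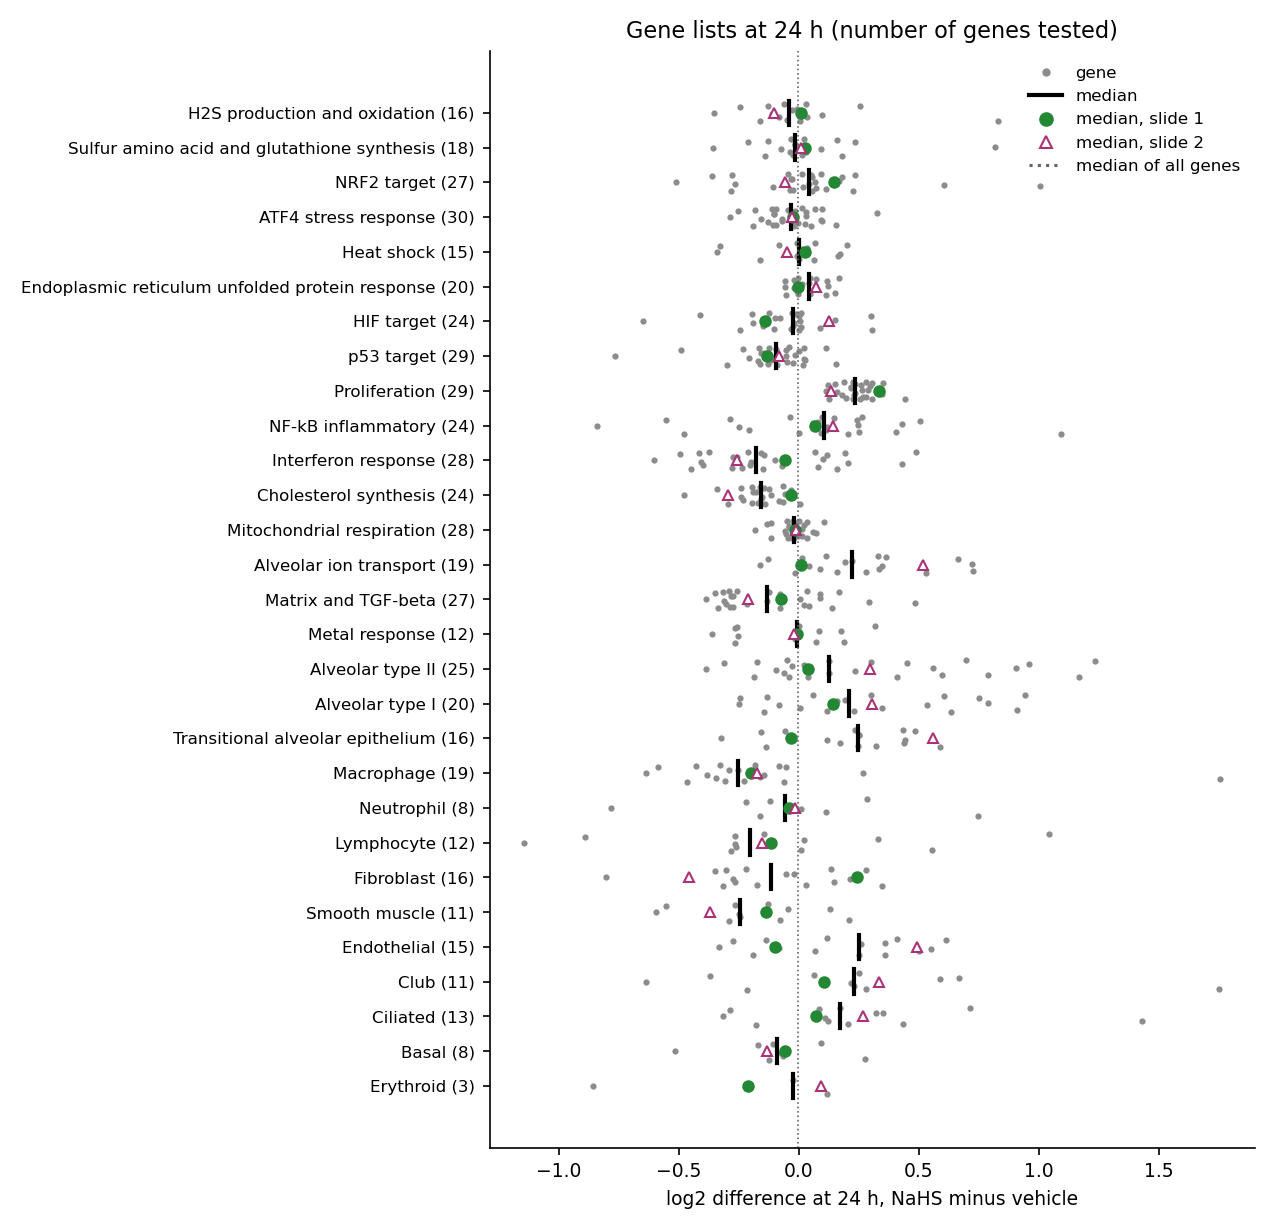
Log2 differences at 24 h (x axis) of the genes of 29 lists, a grey point per gene, with the list median as a black bar, the medians on slide 1 and slide 2 as circles and triangles, and the median of all genes as a dotted line. The proliferation list lies wholly right of 0 (median 0.24), and the medians of the ion transport, transitional, fibroblast and endothelial lists are far apart between the slides.

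Genes of cell division differed in 1 direction. Of 30 genes in the proliferation list 29 were tested, and all 29 had positive differences, against 49.7% of all genes, from 0.11 to 0.44 with a median of 0.24. None passed, and 4 of 29 were at an unadjusted p under 0.05 (against 3.09% higher over all genes). For 1 gene the groups did not overlap (3.45%, against 0.933% higher over all genes). The list was chosen with earlier results of these data known, so these counts are not an independent test. The gene without overlap was Cenpm, a centromere protein, at -1.67, -1.85, -1.58 and -1.62 with vehicle and at -1.46, -1.43, -1.25 and -1.36 with NaHS. Its difference was 0.30 ± 0.09 (SE; adjusted p = 0.531).

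Bub1, a kinase of the spindle checkpoint, stood at 0.27, 0.03, 0.56 and 0.23 with vehicle and at 0.57, 0.43, 0.97 and 0.47 with NaHS. On each slide both NaHS arrays were higher, though those of slide 2 stayed below 1 vehicle array of slide 1, and the difference was 0.34 ± 0.14 (SE; adjusted p = 0.547). Mki67, the marker of cycling cells, stood at 3.58, 3.19, 3.87 and 3.65 with vehicle and at 4.011, 3.39, 4.33 and 3.58 with NaHS, where the groups overlapped (0.26 ± 0.20, SE).

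The mean of the list gives the same in 1 value per array. It was 2.32, 2.11, 2.59 and 2.39 with vehicle (2.35 ± 0.20, SD, n = 4) and 2.63, 2.31, 2.93 and 2.52 with NaHS (2.60 ± 0.26, SD, n = 4). The difference was thus about the size of the spread among arrays of a group. On slide 1 both NaHS arrays were above both vehicle arrays, and on slide 2 they overlapped. The median difference was 0.34 on slide 1 (29 of 29 positive) and 0.13 on slide 2 (27 of 29), and it was 0.24 with quantile normalization and 0.22 with normexp. Leaving out 1 array moved it between 0.14 (replicate 3 of NaHS) and 0.31 (replicate 2 of NaHS). Over all genes 46.5% were positive on slide 1 and 48.3% on slide 2. These genes share cells and arrays, so 29 genes are not 29 observations.

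At 6 h the same genes had 2 of 29 positive differences (50.7% of all genes) and a median of -0.07. With time in vehicle, from 6 h to 24 h, 0 of 29 had positive differences (52.1% of all genes), the median was -0.69, and 17 of 29 genes fell (against 0.924% of all genes falling and 2.13% called either way). With time in NaHS the median was -0.35. The comparison over time in vehicle and the NaHS comparison share the 4 vehicle arrays at 24 h, so these values are not independent. In bulk RNA, more cells in division and more RNA per dividing cell cannot be told apart.

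The p53 targets lay the other way, with 7 of 29 positive differences and a median of -0.09, -0.13 on slide 1 and -0.08 on slide 2. Eda2r, a receptor of the ectodysplasin family, stood at -2.44, -1.89, -2.50 and -2.25 with vehicle and at -2.51, -2.83, -3.17 and -2.53 with NaHS. All NaHS arrays were below all vehicle arrays, the difference was -0.49 ± 0.16 (SE; adjusted p = 0.531), and no other gene of the list had groups apart (against 0.743% lower over all genes). Cdkn1a, the cell cycle inhibitor p21, differed by -0.12 ± 0.12 (SE), with an interval from -0.37 to 0.14. Pltp, a phospholipid transfer protein, differed by -0.76 ± 0.38. The list mean was 2.36 ± 0.04 with vehicle and 2.24 ± 0.08 with NaHS (SD, n = 4), with 1 NaHS array, replicate 1, among the vehicle arrays.

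**Figure D4:**
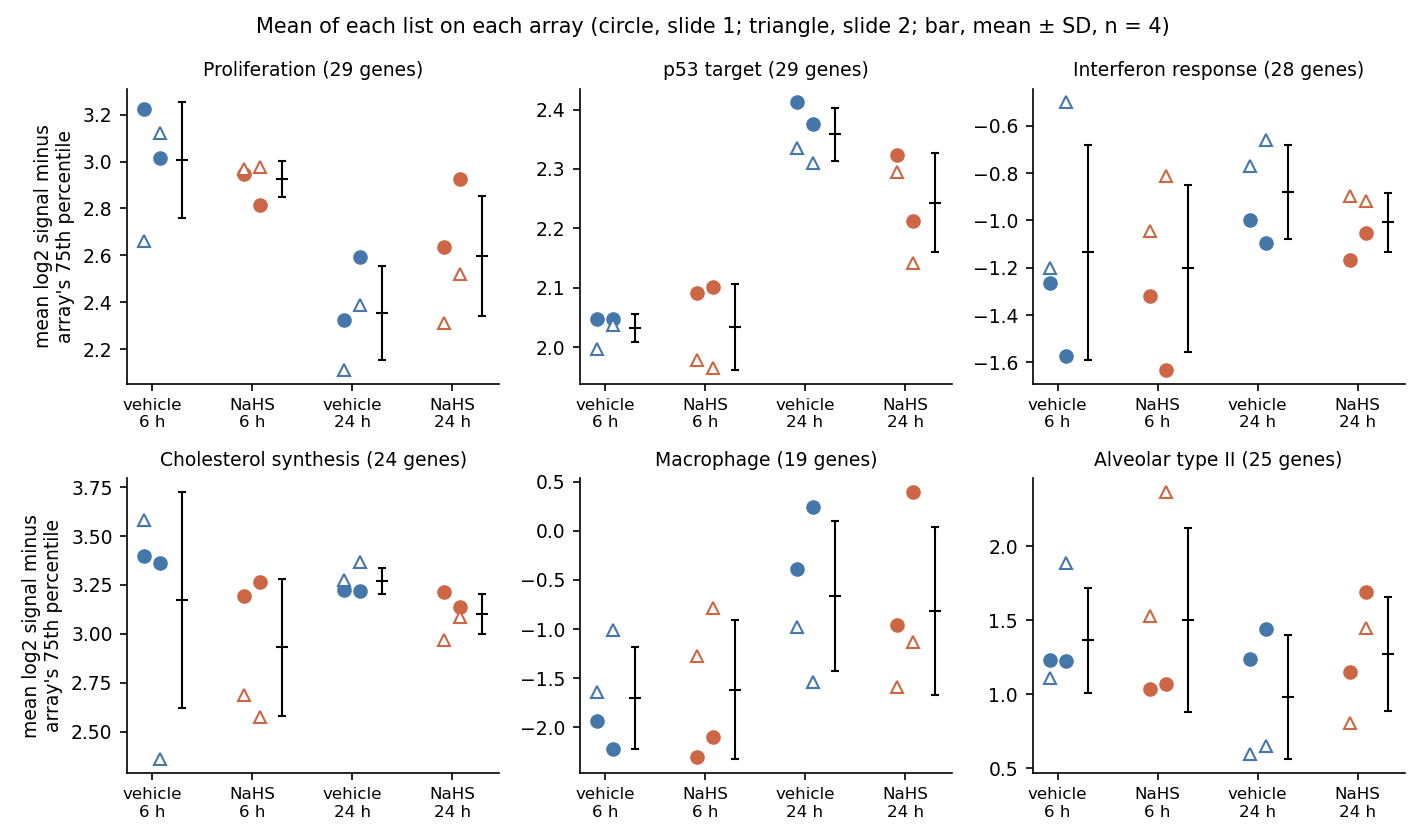
Mean level of each of 6 lists on each of the 16 arrays (y axis, log2 signal minus the 75th percentile of the array, axes differ and do not start at 0), for vehicle and NaHS at 6 h and 24 h, circles for slide 1, triangles for slide 2, bars for the mean ± SD of 4 arrays. The proliferation mean at 24 h is 2.35 with vehicle and 2.60 with NaHS, below the 6 h means of 3.01 and 2.92, and the macrophage mean ranges from -1.59 to 0.40 in NaHS alone.

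Cholesterol synthesis had 1 of 24 positive differences at 24 h and a median of -0.16. Most of this lay on slide 2, with a median of -0.30 against -0.03 on slide 1, and without replicate 4 of vehicle the median was -0.09. The list mean was 3.23, 3.27, 3.22 and 3.37 with vehicle and 3.21, 2.97, 3.14 and 3.09 with NaHS, all NaHS arrays being below all vehicle arrays, by little on slide 1. Hsd17b7, a late enzyme of the pathway, stood at 2.33, 1.93, 2.30 and 2.18 with vehicle and at 2.21, 1.76, 2.17 and 2.03 with NaHS, lower on slide 1 and overlapping on slide 2 (-0.14 ± 0.09, SE). Mvk, mevalonate kinase, differed by -0.23 ± 0.20 (SE), -0.03 on slide 1 and -0.44 on slide 2. At 6 h the list had 0 of 24 positive and a median of -0.22.

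Interferon response genes had 9 of 28 positive differences and a median of -0.18, -0.06 on slide 1 and -0.26 on slide 2. Isg15, an interferon-induced ubiquitin-like protein, stood at 1.91, 2.69, 1.56 and 2.45 with vehicle and at 1.27, 1.76, 1.61 and 1.55 with NaHS. The NaHS arrays were low and alike, and 2 of them lay within the range of the vehicle arrays. The difference was -0.60 ± 0.16 (SE; adjusted p = 0.531), and Irf7, a factor that drives interferon genes, differed by -0.41 ± 0.17. With time in vehicle both rose, Isg15 by 1.10 (adjusted p = 0.012) and Irf7 by 0.77 (adjusted p = 0.038). Both comparisons share the vehicle arrays at 24 h, and both genes were picked by p in the NaHS comparison. The rise with time and the difference with NaHS are therefore not independent.

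The NF-kB inflammatory genes had 17 of 24 positive differences and a median of 0.10. Csf3, granulocyte colony-stimulating factor, stood at -1.62, -4.48, -1.22 and -2.41 with vehicle and at -1.11, -1.95, -0.98 and -1.33 with NaHS. The lowest array by far was replicate 2 of vehicle, and without it the difference was 0.51 in place of 1.09. Nos2, the inducible nitric oxide synthase, differed by -0.21 ± 0.10.

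Markers of the labelled cell type were present, as were those of other cells. Of 25 alveolar type II genes tested, 23 were above background on all 8 arrays at 24 h, against 23434 of all 33239 genes. The like counts were 19 of 20 type I, 14 of 16 fibroblast and 10 of 11 smooth muscle genes. They were lower for endothelial (10 of 15) and lymphocyte (6 of 12) genes. The type II count alone therefore does not set these cells apart. Sftpc, surfactant protein C and the defining marker, stood at 1.98, 0.55, 2.45 and 0.47 with vehicle and at 1.89, 1.14, 3.26 and 3.84 with NaHS. The groups overlapped and the highest array was replicate 4 of NaHS, so the difference of 1.17 ± 0.79 (SE) has a 95% interval from -0.54 to 2.88. Slc34a2, a phosphate transporter of these cells, was above background on 0 arrays and was not tested.

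The other surfactant genes were as variable. Sftpb differed by 0.91 ± 0.56 (SE), 0.10 on slide 1 and 1.71 on slide 2. Sftpa1 stood at -4.67, -4.18, -5.74 and -5.28 with vehicle and at -3.92, -3.90, -4.93 and -3.29 with NaHS, overlapping, with a difference of 0.96 ± 0.40 (SE; adjusted p = 0.55). Cxcl15, a lung chemokine, was above background on 0 of 4 vehicle and 2 of 4 NaHS arrays. Abca3, the lipid transporter of lamellar bodies, was steady, at 3.11, 3.03, 3.23 and 3.17 with vehicle and 3.11, 2.99, 3.36 and 3.16 with NaHS. Over the list 16 of 25 differences were positive (median 0.13), and the list mean per array ran from 0.60 to 1.44 with vehicle and from 0.80 to 1.69 with NaHS.

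Type I genes had 15 of 20 positive differences and a median of 0.21. Ager, their main marker, ranged from -1.10 to 2.42 with vehicle and from -1.19 to 2.89 with NaHS, so its interval ran from -1.95 to 3.23. Pdpn, podoplanin, lay without overlap at 6.55, 6.85, 6.50 and 6.58 with vehicle and 6.40, 6.46, 6.31 and 6.31 with NaHS (-0.25 ± 0.13, SE; adjusted p = 0.604). It was the 1 of 20 type I genes with all NaHS arrays lower (5%, against 0.743% of all genes). Rtkn2, a further type I gene, differed by 0.94 ± 0.52 and was above background on 1 of 4 vehicle and 3 of 4 NaHS arrays. Genes of transitional alveolar epithelium, a state between both types, had 12 of 16 positive and a median of 0.25, but -0.03 on slide 1 and 0.56 on slide 2.

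The ion transport genes of the alveolus had 16 of 19 positive differences and a median of 0.22, which was 0.01 on slide 1 and 0.52 on slide 2. Sgk1, a kinase that raises sodium channel activity, stood at 3.58, 2.62, 3.72 and 2.92 with vehicle and at 3.71, 3.23, 3.75 and 3.49 with NaHS, a difference of 0.34 ± 0.16 (SE; adjusted p = 0.576). On slide 1 the values were nearly level, and on slide 2 the vehicle arrays were low. Clca1, a secreted regulator of chloride channels, differed by -0.16 ± 0.09. Cftr and Scnn1g were above background on 2 and 1 of 16 arrays and were not tested.

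Markers of other cells were measured too, and their part in the results above was not tested. The macrophage list had 2 of 19 positive differences and a median of -0.25, C1qa having the smallest p. Without replicate 3 of vehicle the median was 0.07 and without replicate 3 of NaHS -0.69. The list mean per array ran from -1.54 to 0.24 with vehicle and from -1.59 to 0.40 with NaHS, and 16 of 19 genes were above background on all 8 arrays. Itgam, an integrin of myeloid cells, differed by -0.33 ± 0.18. The neutrophil list had 4 of 8 positive (median -0.06), with Mpo at 0.75 ± 0.23 and Elane at -0.12 ± 0.10. Lymphocyte genes had 5 of 12 positive (median -0.20). In each direction 1 member was at an unadjusted p under 0.05 (over all genes 3.09% higher and 5.66% lower). All NaHS arrays lay above all vehicle arrays for 1 of the 12 (8.33%, against 0.933% of all genes).

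The lymphocyte gene lower at an unadjusted p under 0.05 was Cd8a, of T cells. It differed by -1.15 ± 0.26 (SE; adjusted p = 0.531), above background on 2 of 4 arrays of each group. Its difference was -0.26 with normexp and -0.53 with the mean of its probes.

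Endothelial genes had 10 of 15 positive differences (median 0.25). On slide 1, 4 of 15 were positive (median -0.10), and on slide 2, 11 of 15 were (median 0.49). Kdr, a receptor for vascular endothelial growth factor, did not overlap between the groups. It stood at 3.57, 3.89, 3.52 and 3.54 with vehicle and 3.46, 3.24, 3.22 and 3.26 with NaHS. It was the 1 of 15 endothelial genes with all NaHS arrays lower (6.67%, against 0.743% of all genes). Its difference was -0.33 ± 0.15 (SE; adjusted p = 0.564), while Tek, the angiopoietin receptor, differed by 0.50 ± 0.24. Club cell genes had 8 of 11 positive (median 0.23; Muc5b -0.64 ± 0.30, Bpifb1 -0.37 ± 0.18). Ciliated cell genes had 10 of 13 (median 0.17; Mcidas -0.29 ± 0.16, and Dnah5, at 0 of 4 and 2 of 4 arrays above background). Basal cell genes had 2 of 8 (median -0.09; Ngfr 0.28 ± 0.20, Itga6 -0.17 ± 0.13), and erythroid genes 1 of 3 (Alas2 -0.86 ± 0.56, Hba-a1 0.12 ± 0.19; median -0.03).

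Matrix and smooth muscle genes had mostly negative differences. Of the 1000 brightest genes, with levels of 6.26 or more, 894 also did (median -0.096). The 8310 brightest genes, a wider group, had a median of 0.0015. Whether brightness had a part in these differences was not tested. With vehicle at 24 h the mean level was 2.49 for the smooth muscle list and 1.95 for the fibroblast list. The matrix and TGF-beta list had 10 of 27 positive differences (median -0.13), smooth muscle 2 of 11 (-0.25) and fibroblast 6 of 16 (-0.11). The fibroblast list turned between slides, with 11 of 16 positive on slide 1 (median 0.24) and 1 of 16 on slide 2 (-0.46). Col1a1, the chain of type I collagen, stood at 7.62, 7.78, 7.53 and 7.63 with vehicle and at 7.52, 7.30, 7.35 and 6.999 with NaHS, with all NaHS arrays lower (-0.35 ± 0.13, SE; adjusted p = 0.542). Yet of the 100 brightest genes 99 had negative differences (median -0.19), and with quantile normalization 45 of 100 did (median 0.01).

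Several bright named genes moved with the normalization. Under quantile normalization Tagln, of smooth muscle, went from -0.29 to 0.0001, S100a6 from -0.16 to 0.05, the matrix protein Sparc from -0.34 to -0.09 and Clu from -0.32 to -0.12. Ftl1, ferritin light chain, went from -0.36 to -0.17 and the chaperone Hspa8 from -0.34 to -0.22. The smooth muscle median became -0.08, the matrix median -0.04 and the fibroblast median -0.06 (-0.01 with normexp). Col1a1 stayed at -0.26, and Des, the muscle filament desmin, differed by -0.59 ± 0.35 in the main values. Gli1, a Hedgehog effector on the fibroblast list, differed by -0.80 ± 0.30 (SE; adjusted p = 0.542).

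Whether the 24 h effect differed from that at 6 h was tested directly, and 0 genes passed in limma (0%), while 1558 had an unadjusted p below 0.05 (4.69%). At 6 h itself 0 genes passed and 629 were at an unadjusted p under 0.05 (1.89%). The differences between times with the smallest p that were positive belonged to Ank (0.70 ± 0.17), Cenpm (0.51 ± 0.13), Itga2b (0.97 ± 0.26), Sec14l5 (1.21 ± 0.32) and Twist2 (0.82 ± 0.23). Those that were negative belonged to Dio3os (-2.11 ± 0.50), Hsf4 (-0.97 ± 0.24), Cyria (-0.61 ± 0.16), Clec2e (-0.93 ± 0.25) and Prnp (-0.74 ± 0.21). Each had an adjusted p of 0.973.

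Prnp, the prion protein gene, shows what such a value is made of. At 24 h it stood at 5.75, 6.27, 5.71 and 5.96 with vehicle and at 5.20, 5.39, 5.43 and 5.77 with NaHS, lower on each slide (-0.47 ± 0.15, SE; adjusted p = 0.531), while at 6 h its difference was 0.27 ± 0.15. Itga2b, the platelet integrin gene, differed by 0.51 ± 0.18 at 24 h and by -0.46 ± 0.18 at 6 h. Twist2, a mesenchymal transcription factor, differed by 0.55 ± 0.16 at 24 h and by -0.27 ± 0.16 at 6 h. For Hsf4, a heat shock factor, the values were -0.45 ± 0.17 and 0.52 ± 0.17, and for Clec2e, a lectin, -0.54 ± 0.17 and 0.39 ± 0.17. All were picked by p for the difference between times, which favours opposite signs at 6 h and 24 h.

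The 2 slides can be read as 2 small experiments of 2 against 2 arrays. With a mean for each group on each slide, the fit called 0 genes on slide 1 (limma; 1316, 3.96%, at an unadjusted p under 0.05) and 35 on slide 2 (0.105%; 3694, 11.1%, unadjusted), 34 of them higher with NaHS and 1 lower. These calls changed with the settings, all chosen after seeing the data. With the arrays of slide 2 fitted alone 0 genes passed (3381 unadjusted), with normexp 0 did, with quantile normalization 83 did, 30 of them among the 35, and with genes above background on all 8 arrays 41 did, 20 among the 35. Leaving out replicate 2 of vehicle gave 39 calls of which 7 were among the 35, leaving out replicate 2 of NaHS gave 15 with 4 among them, and leaving out replicates 4 of vehicle and of NaHS gave 119 with 21 and 86 with 24. Lower calls grew in number, with 22 higher and 17 lower without replicate 2 of vehicle, 81 and 38 without replicate 4 of vehicle, and 69 and 17 without replicate 4 of NaHS.

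Of the 35 genes 7 had a usual gene symbol, and most of the others were probes without a gene name. On slide 1, 14 of the 35 had the same sign. There 4 were at an unadjusted p under 0.05, 3 with the same sign and 1 opposite. On slide 2, 11 of the 35 were above background on neither vehicle array. Has3, a hyaluronan synthase, had the smallest p of the 35, with -5.23 and -4.74 for vehicle and -4.55 and -4.68 for NaHS on slide 1. On slide 2 it stood at -7.47 and -7.30 with vehicle and at -3.104 and -4.08 with NaHS. The slide 1 values were close and the slide 2 values far apart, but the probe was well above background on 1 of 4 vehicle arrays, so no size is given for the difference. Car10, Tpcn2, Sh2d2a and Lrrc38 were also among the 35, with differences from 0.98 to 2.35 on slide 2 and from -0.24 to -0.11 on slide 1.

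The difference between the slides was also tested directly. In limma 0 genes passed (0%), while 1889 had an unadjusted p below 0.05 (5.68%), with a smallest adjusted p of 0.148. Among negative differences the smallest p belonged to Cd300ld3 (0.94 on slide 1 and -0.41 on slide 2), Sntg1 (0.10 and -2.15), Galnt17 (1.77 and -0.58), Ankrd34a (0.28 and -0.70) and Mab21l2 (0.28 and -0.45). Across the 33239 genes, which are not independent and share arrays, the differences on the slides had a Pearson r of 0.13, and 57.4% had the same sign. Of the 1316 genes at an unadjusted p under 0.05 on slide 1, 67.8% had the same sign on slide 2, and of the 3694 on slide 2, 59.8% had the same sign on slide 1.

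**Figure D5:**
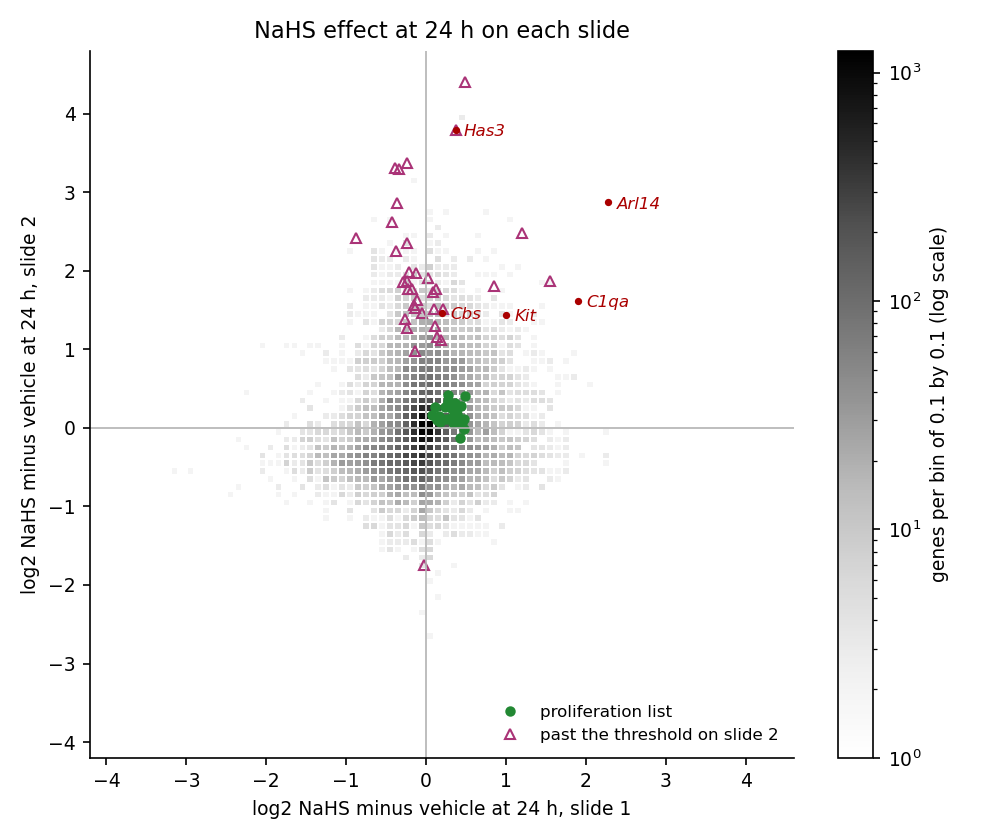
Log2 difference (NaHS minus vehicle at 24 h) on slide 1 (x axis) and slide 2 (y axis) for 33239 genes, as grey bins of 0.1 by 0.1 shaded by the number of genes on a log scale, with the proliferation list as green circles and the 35 genes past the threshold on slide 2 as triangles. The cloud is taller than wide and barely tilted (r = 0.13), the 35 genes lie between -0.87 and 1.54 on slide 1, and 27 of 29 proliferation genes are above 0 on both axes.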

How the data were processed

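Transcripts were measured on Agilent mouse arrays with Cy3 as the 1 dye, labelled from 0.1 µg of RNA per the labels' protocols. Per the file headers and the submitters' processing notes, Agilent Feature Extraction 10.7.3.1 gave the deposited intensity values (background-subtracted) and the flags for background and outlier spots. The value table the authors deposited holds log2 values whose steps are not given in the sources used here. Over probes well above background on an array, its columns correlate at 0.999 or more with their own arrays. They share a median of 5.95, and the value table was an alternative only.

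Of 62976 spots, 59305 that were not controls (55681 probes) were used except outlier spots. Saturated spots numbered 0. The 75th percentile of each array was subtracted from the log2 signal. Probes well above background on at least 4 of the 16 arrays of the NaHS experiment were kept, and the brightest probe stood for a gene. Of the probes 27319 were named by accession, 3528 by symbol, 551 by an older symbol (RefSeq, GRCm38.p6), 1132 by the array design and 23151 by none. Each probe without a name that was kept counted as a gene of its own. limma 3.58.1 in R 4.3.3 fitted 4 group means and slide over 16 arrays, with Benjamini-Hochberg adjustment at 0.05, and Python 3.11.15 (numpy 2.4.6, pandas 2.3.3, matplotlib 3.10.9) made tables and figures. Data were also simulated for 33239 genes, with 50 changed at each size and all sizes changed at once. The fit of this comparison called 26%, 54%, 78% and 100% of genes changed by 0.5, 1, 2 and 4 on the log2 scale. It also called 7 unchanged genes. The simulated noise was normal and independent between genes, so the rates may differ in the real data or where few genes change.

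The members and gene lists were chosen with earlier results of these data known. Named genes were those of smallest p among positive (12) and negative (12) differences, with a usual symbol and above background on all 4 arrays of a group, the 2 members of each list with the smallest p, a fixed set of H2S, surfactant and marker genes, and the 5 smallest p each way for the difference tests. Some named genes are not reported here. The 8 arrays of the GYY4137 experiment were not used here. The number of arrays limits the precision.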

Additional observations from a re-analysis of the deposited data

Results flagged for a closer look

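In 6 of 276 groups of 4 arrays examined at 24 h (named genes, list means and the share of probes above background), 1 array lay far from the other 3 by the gap between it and its neighbour. Chance marks about 1 in 20 groups of 4 like arrays, and the rate for groups that span 2 slides, as here, was not worked out. Nipal1 in replicate 3 of NaHS was at 0.13 against -0.16 to -0.11. Elane in replicate 4 of vehicle was at 0.65 against 0.95 to 0.99. Gli1 in replicate 4 of NaHS was at -2.81 against -3.38 to -3.32. Kdr was at 3.89 in replicate 2 of vehicle against 3.52 to 3.57, and at 3.46 in replicate 1 of NaHS against 3.22 to 3.26. Galnt17 in replicate 3 of NaHS was at -3.48 against -4.23 to -4.14.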

How the results depend on the processing

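Over 22 alternatives to the fit, limma called 0 genes at 24 h in each of them, and 0 for the difference between times in each that could be fitted. The difference between slides, refitted with quantile normalization and with genes above background on all 8 arrays, also gave 0. At 24 h the smallest adjusted p ranged from 0.0648 (without replicate 3 of vehicle) to 0.9998 (no slide in the fit). Counts at an unadjusted p under 0.05 were 738 without slide in the fit and between 1795 (without replicate 2 of vehicle) and 3923 (without replicate 3 of vehicle) with 1 array left out. After the slide was removed, same-numbered arrays of the 2 groups correlated at 0.061 to 0.075 in their deviations, so the numbers were not taken as pairs beyond the slide. The replicate block called 0 genes (3169 unadjusted) and changed no call. The 35 calls on slide 2, tested under alternatives chosen after seeing the data, were 83 with quantile normalization (30 shared), 0 with normexp, 0 with the arrays of slide 2 alone, 41 with genes above background on all 8 arrays (20 shared), and 15 to 119 with 1 array left out. A lone array of a group was then assumed to vary like the other groups.

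Among the named genes 54 had an interval that excluded 0, and 4 of these turned sign, each within slide 1: Car10 (-0.22), Tpcn2 (-0.24), Lrrc38 (-0.14) and Sntg1 (0.10). Of the other 53, 16 changed sign under some alternative. Of 637 list medians under alternatives 34 moved by more than 1 SD, in 14 lists. With normexp, differences of other dim genes were also smaller, at 0.29 for Mpo, -0.39 for Gli1, 0.07 for Tek, -0.13 for Muc5b, 0.11 for Itga2b and -0.25 for Hsf4. The bright genes moved with the normalization, as given above. The cause was not tested.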
